A study of Mus musculus with 4 samples.

Results

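The genes described here encode the proteins of the cytoplasmic ribosome, and the measurement is where peaks of the transcription factor Sp9 lay relative to their transcription start sites (TSS). Members were all mouse protein-coding genes named Rpl or Rps and a number, with Rplp0 to Rplp2 and Rpsa, and without the Rps6k kinases. The rule found 91 of 21900 protein-coding genes. Of these, 77 carry the name of a cytoplasmic ribosomal protein, 46 of the large and 31 of the small subunit, and are called core genes below. The other 14 are paralogues, retrogenes and genes named after a ribosomal protein. One of them, Rps19bp1, encodes a protein that binds the ribosomal protein Rps19 and is not itself a ribosomal protein. The name rule also leaves out Fau, which encodes a ribosomal protein fused to a ubiquitin-like sequence.

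DNA bound by Sp9 was isolated by chromatin immunoprecipitation and sequenced (ChIP-seq) from basal ganglia of wild-type embryos of the CD1 strain, taken on embryonic day 13.5 (E13.5) or 16.5 (E16.5). Each stage had 1 ChIP library, made with a rabbit antibody to Sp9, and 1 input library that entered only through the authors' peak calling. The E13.5 list held 5847 peaks and the E16.5 list 6022, each given as a signed distance from the TSS of a named gene in the mouse mm9 build. They give no peak height, coordinate or read total, so depth was unknown, peak strength could not be compared, and a gene without a peak was one with none past the authors' threshold. Since each stage has 1 library, the stages were not tested against each other and no value has a replicate, and intervals cover counting error over genes only. The tissue holds dividing progenitors as well as young neurons, and the lists do not show in which cells a site was bound or how strongly a gene was expressed.

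Every cell type builds its ribosomes from these proteins, and their genes are among the most strongly transcribed housekeeping genes. Their promoters are typically short, rich in G and C and without a strong TATA box, and transcription usually begins within a run of pyrimidines, which gives their mRNAs the 5′ terminal oligopyrimidine (TOP) tract that ties translation to growth signals. Sp9 is a zinc finger protein of the SP/KLF family, whose members bind GC boxes and related GC-rich or CACCC-type sequences.

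A minority of ribosomal protein genes carried an Sp9 peak at the promoter, here meaning within 1 kb of the TSS. At E13.5 there were 7 of 91 (7.69%, 95% Wilson interval 3.78 to 15), against 4.93% of all protein-coding genes. At E16.5 there were 19 of 91 (20.9%, 13.8 to 30.3), against 9.42%. Of the 77 core genes, the E13.5 list gave 6 such a peak (7.79%, 3.62 to 16) and the E16.5 list 19 (24.7%, 16.4 to 35.4). A promoter peak in both lists was found at 6 of the 77 (7.79%, 3.62 to 16), against 3.4% of all protein-coding genes. These were all of the core genes with one at E13.5 (6 of 6, Wilson interval 61 to 100). Of the 1079 protein-coding genes with one at E13.5, 744 (69%) had one at E16.5 too, a share inside that interval. Over all 91 members the count was 6 of 7 (85.7%, 48.7 to 97.4). A further 13 core genes had one at E16.5 only (16.9%, 10.1 to 26.8), against 6.02%. No core gene had one at E13.5 only (0 of 77, Wilson interval 0 to 4.75), against 1.53%. The remaining 58 core genes (75.3%) had no promoter peak in either list, against 89.1% of all protein-coding genes. The share at E13.5 was thus close to the background, whose value lies inside the interval, and the share at E16.5 stood above it.

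The 6 core genes with a promoter peak in both lists were Rpl3, Rpl13a, Rpl27, Rpl35a, Rps12 and Rps16. Peaks were called recurring where their distances from the same TSS differed by at most 200 bp, and all 6 recurred. The promoter sequences of 5 of these genes are shown first, because they are the sites found at both stages. They are followed by 5 genes with a peak at E16.5 only that hold the SP/KLF-type letters CACGCCC, and by Rpl4, the core promoter of lowest GC content among those RefSeq gave, which had no peak in either list. Each is RefSeq's reference sequence in the GRCm38.p6 build, another build than that of the lists, from 150 bases before the TSS to 20 bases after it, 5′ to 3′ along the gene. Capitals mark the GC box letters GGGCGG and the letters CACGCCC, each on either strand. In Rpl35a a match of each kind shares 1 base, which joins them in a single run.
Rpl13a, chr7:45128726-45128895, minus strand: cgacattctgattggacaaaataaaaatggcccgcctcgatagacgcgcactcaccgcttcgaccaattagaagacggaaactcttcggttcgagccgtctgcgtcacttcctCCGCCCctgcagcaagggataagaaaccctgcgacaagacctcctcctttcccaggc
Rpl27, chr11:101442095-101442264, plus strand: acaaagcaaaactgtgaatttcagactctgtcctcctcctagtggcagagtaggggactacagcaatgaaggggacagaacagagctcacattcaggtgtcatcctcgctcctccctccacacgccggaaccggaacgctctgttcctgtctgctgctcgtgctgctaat
Rpl35a, chr16:33056303-33056472, plus strand: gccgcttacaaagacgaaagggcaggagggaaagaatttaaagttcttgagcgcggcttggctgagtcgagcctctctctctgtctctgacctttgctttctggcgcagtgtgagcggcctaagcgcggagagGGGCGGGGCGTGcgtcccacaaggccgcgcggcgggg
Rps12, chr10:23787190-23787359, minus strand: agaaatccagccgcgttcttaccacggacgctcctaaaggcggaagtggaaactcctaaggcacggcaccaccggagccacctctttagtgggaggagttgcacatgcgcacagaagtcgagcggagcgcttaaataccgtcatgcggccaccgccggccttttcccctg
Rps16, chr7:28350539-28350708, plus strand: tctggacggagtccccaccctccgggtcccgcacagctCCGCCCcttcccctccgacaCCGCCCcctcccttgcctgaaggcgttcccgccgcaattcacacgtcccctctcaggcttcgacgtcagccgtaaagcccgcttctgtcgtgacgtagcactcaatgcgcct
Rpl7a, chr2:26910657-26910826, plus strand: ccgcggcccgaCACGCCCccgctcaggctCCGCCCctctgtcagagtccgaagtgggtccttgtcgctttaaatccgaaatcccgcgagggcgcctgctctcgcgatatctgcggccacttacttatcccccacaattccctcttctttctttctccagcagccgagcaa
Rpl37, chr15:5116463-5116632, plus strand: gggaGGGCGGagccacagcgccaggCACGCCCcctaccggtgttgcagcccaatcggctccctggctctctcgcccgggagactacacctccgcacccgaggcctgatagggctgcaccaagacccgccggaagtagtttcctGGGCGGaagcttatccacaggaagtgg
Rps10, chr17:27635225-27635394, minus strand: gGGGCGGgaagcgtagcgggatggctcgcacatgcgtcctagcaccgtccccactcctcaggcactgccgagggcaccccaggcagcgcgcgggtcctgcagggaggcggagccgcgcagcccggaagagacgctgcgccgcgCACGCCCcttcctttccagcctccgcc
Rps15, chr10:80292281-80292450, plus strand: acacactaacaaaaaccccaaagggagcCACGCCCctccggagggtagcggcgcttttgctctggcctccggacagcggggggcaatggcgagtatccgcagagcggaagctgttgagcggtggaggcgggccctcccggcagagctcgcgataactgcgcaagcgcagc
Rps25, chr9:44407564-44407733, plus strand: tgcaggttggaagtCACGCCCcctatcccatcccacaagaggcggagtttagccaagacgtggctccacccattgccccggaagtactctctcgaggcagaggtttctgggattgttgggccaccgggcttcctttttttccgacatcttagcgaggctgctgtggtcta
Rpl4, chr9:64173237-64173406, plus strand: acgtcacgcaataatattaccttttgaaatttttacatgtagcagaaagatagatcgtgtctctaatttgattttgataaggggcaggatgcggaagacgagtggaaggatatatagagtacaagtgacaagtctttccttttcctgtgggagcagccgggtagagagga
Among the sequences with a peak in both lists, GC box letters lie 37 to 32 bases before the Rpl13a TSS and 17 to 12 before the Rpl35a TSS. They lie in 2 copies before the Rps16 TSS. Among those with a peak at E16.5 only, they lie 121 to 116 bases before the Rpl7a TSS and 149 to 144 before the Rps10 TSS. Rpl37 holds 2 copies, 146 to 141 and 7 to 2 bases before its TSS. The windows shown for Rpl27 and Rps12 hold neither motif. Farther upstream, GC box letters lie from 220 to 215 bases before the Rpl27 TSS and CACGCCC from 190 to 184 bases before the Rps12 TSS.

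Of the large subunit genes bound at both stages, Rpl3 encodes a protein that reaches toward the peptidyl transferase centre. Its peak lay 37 bp upstream of the TSS at E13.5 and 76 bp upstream at E16.5. The peak of Rpl27 lay 26 bp upstream at E13.5 and 22 bp downstream at E16.5, on either side of the TSS. The peak of Rpl35a, a gene mutated in some patients with Diamond-Blackfan anaemia, lay 88 bp upstream at E13.5 and 113 bp upstream at E16.5. Rpl13a, whose protein also takes part in translational control outside the ribosome, had its peak 145 bp upstream at E13.5 and 283 bp upstream at E16.5. Its 138 bp difference was the largest among the 6 genes, and the others differed by 48 bp or less. Sheared fragments were 200 to 1000 bp long, per the labels' protocols, so differences of this size are shorter than most fragments.

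Of the small subunit genes bound at both stages, Rps12 had its peak 173 bp upstream of the TSS in both lists. The peak of Rps16 lay 19 bp downstream at E13.5 and 3 bp upstream at E16.5. Rps12 therefore had the closest match between the stages and Rps16 the peaks nearest to the TSS.

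**Figure D1:**
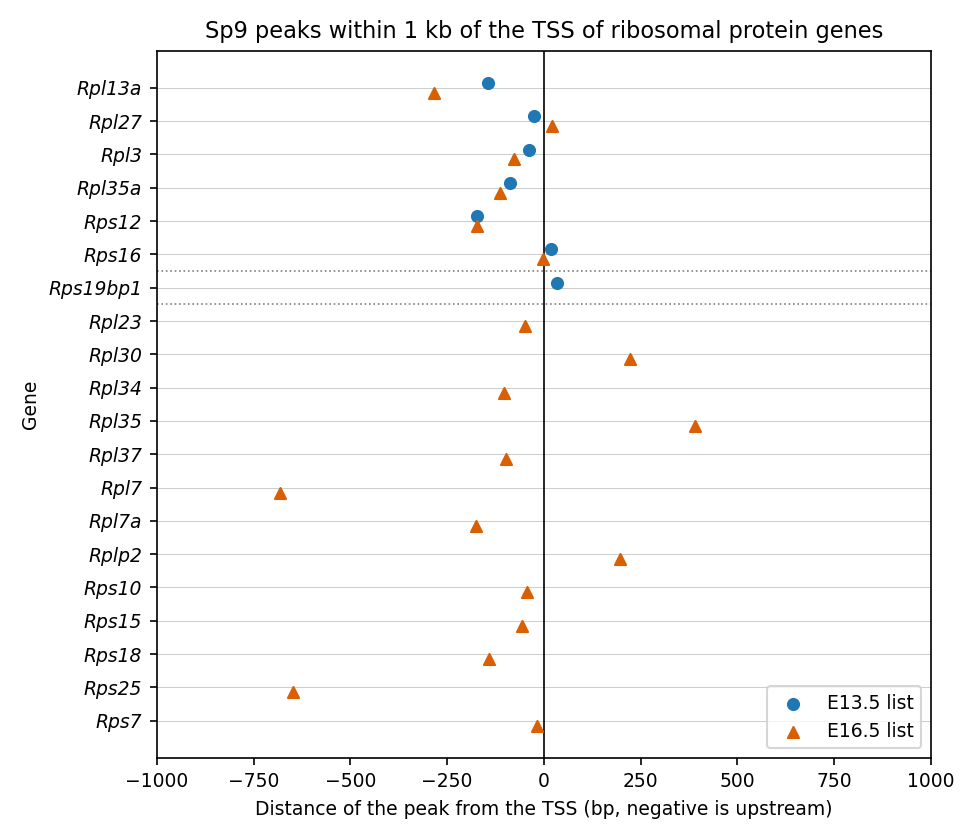
Each point is a peak within 1 kb of the TSS of a ribosomal protein gene, placed by its distance from the TSS in bp (negative is upstream), with circles for the E13.5 list and triangles for the E16.5 list. The upper 6 genes have a peak in both lists, Rps19bp1 has one in the E13.5 list only, and the lower 13 have one in the E16.5 list only.

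The 13 genes with a promoter peak at E16.5 only held 8 genes of the large subunit and 5 of the small. Those of the large subunit were Rpl7, Rpl7a, Rpl23, Rpl30, Rpl34, Rpl35, Rpl37 and Rplp2. Rpl23, whose protein can bind the p53 regulator Mdm2, had its peak 49 bp upstream of the TSS. The peaks of Rpl37 and Rpl34 lay 97 and 102 bp upstream. Rpl7a had a peak 175 bp upstream and Rpl7 one 681 bp upstream, the farthest of all. Peaks of Rplp2, which encodes an acidic protein of the stalk that recruits translation factors, of Rpl30 and of Rpl35 lay downstream of the TSS, at 198, 224 and 392 bp.

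The small subunit genes with a peak at E16.5 only were Rps7, Rps10, Rps15, Rps18 and Rps25. Their peaks all lay upstream of the TSS. The distances were 17 bp for Rps7, 44 bp for Rps10, 55 bp for Rps15, 141 bp for Rps18 and 647 bp for Rps25. Rps7 and Rps10 are further genes mutated in Diamond-Blackfan anaemia, and Rps25 encodes a protein needed for initiation at several internal ribosome entry sites. Rps19bp1 was the only member with a promoter peak in the E13.5 list alone, at 33 bp downstream of its TSS. Outside the name rule, and chosen after its values were seen, Fau had peaks 35 bp upstream at E13.5 and 31 bp upstream at E16.5.

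Both subunits were represented. At E13.5, 4 of 46 large subunit genes (8.7%, 3.43 to 20.3) and 2 of 31 small subunit genes (6.45%, 1.79 to 20.7) had a promoter peak. At E16.5 there were 12 of 46 (26.1%, 15.6 to 40.3) and 7 of 31 (22.6%, 11.4 to 39.8). The intervals of the subunits overlap at both stages, and the difference was not tested.

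The peaks lay close to the TSS, as promoter peaks of other genes did. Over the core genes, the median distance on either side was 62.5 bp at E13.5 (range 19 to 173) and 113 bp at E16.5 (range 3 to 681). Over all protein-coding genes the E13.5 median was 126 bp and the E16.5 median 111 bp. Of the core peaks, 5 of the 6 at E13.5 and 15 of the 19 at E16.5 (78.9%) lay upstream, against 68.5% and 64.1% of all promoter peaks. Within 200 bp of the TSS lay 6 of 6 and 14 of 19 (73.7%), against 69.7% and 71.7%. Of the core promoter peaks at E16.5, 6 of 19 recurred at E13.5 (31.6%, 15.4 to 54), against 33.1% of promoter peaks of all protein-coding genes. At E13.5, 6 of 6 recurred (Wilson interval 61 to 100), against 63.2%, which lies inside that interval.

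Several of these promoter peaks were also assigned to a neighbouring gene, so the data cannot tell which of the genes such a peak belongs to. This held for 2 of the 6 E13.5 core promoter peaks and 9 of the 19 from E16.5. Shared promoter peaks were not counted over all genes, so these counts describe the core genes only. The Rpl35a peak lay upstream of both its own TSS and that of Iqcg, 175 bp from Iqcg in the E13.5 list and 150 bp in the E16.5 list. At E16.5 the peak of Rpl7a lay 20 bp upstream of Med22, which encodes a Mediator subunit, and was nearer to that TSS than to its own. The peak of Rps18 lay 46 bp downstream of the TSS of Vps52, a vesicle tethering gene. The peak of Rps25 lay 481 bp downstream of Trappc4, and that of Rpl7 lay 431 bp upstream of Rdh10, which encodes an enzyme of retinoic acid synthesis. These were the 4 E16.5 peaks with another listed TSS nearer. Counting only peaks nearest to the gene's own TSS, 15 of 91 members had a promoter peak at E16.5 (16.5%, 10.3 to 25.4), against 8.33% of all protein-coding genes by the same count. At E13.5 all 7 remained (7.69%, 3.78 to 15), against 4.38%.

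Rpl35 had a further peak 2416 bp upstream at E13.5 and 2428 bp upstream at E16.5. That peak lay 36 and 24 bp from the TSS of Arpc5l, an actin-regulatory gene, so in both lists it was a promoter peak of the neighbour. The peak 392 bp downstream of the Rpl35 TSS, at E16.5, was separate from it. Rpl7 and Rps25 had the promoter peaks nearest to the 1 kb limit.

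Peaks farther away were often nearer to another gene. Beyond 1 kb, core genes had 25 peaks in the E13.5 list and 29 in the E16.5 list, on 12 genes in each list, and 20 of them recurred in each. The ribosomal protein TSS was the nearest listed TSS for 9 of the 25 and 11 of the 29. These counts were not made over all genes, so they describe the farther peaks of these members only. Rplp1, the partner of Rplp2 in the stalk, had the most, 8 in the E13.5 list and 7 in the E16.5 list. They ran from 42027 to 533343 bp downstream in the E13.5 list and from 41987 to 533411 bp in the E16.5 list. All of them were also assigned to Tle3, a Groucho corepressor gene, and the farthest lay 7810 and 7742 bp from the Tle3 TSS. Rps15a had 4 peaks in each list, shared with Xylt1, the nearest 185467 and 185478 bp downstream. Rps24 shared its peaks with Zmiz1, 2 in the E13.5 list, the nearest 288808 bp downstream, and 6 in the E16.5 list, the nearest 35490 bp downstream.

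Of the remaining genes, Rpl19 had a peak 25214 bp downstream in the E13.5 list and 25155 bp in the E16.5 list, which lay 1324 and 1383 bp from the TSS of Stac2. Rpl38, whose loss in mice alters the translation of Hox mRNAs, had 3 peaks in each list, the nearest 131158 and 131180 bp upstream. The Rpl31 peak, 100595 bp upstream in the E13.5 list, recurred 100550 bp upstream, and it lay nearer to Npas2 (73044 and 73089 bp). Rpl14 had one 313452 bp downstream that recurred at 313581 bp, nearer to Ctnnb1. The peak of Rps29 lay 559500 bp downstream in the E13.5 list and 559499 bp in the E16.5 list. Rpl30 had, besides its promoter peak, one 86788 bp downstream in the E13.5 list, found again 86771 bp downstream, and one 106938 bp downstream at E16.5. These lay nearer to Matn2, at 50167 and 50184 bp from its TSS for the recurring peak and 30017 bp for the other. Rpl27a had a peak at E13.5 only, 93167 bp downstream and 4833 bp from the TSS of the gene listed as St5. Rpl11 had one at E16.5 only, 81918 bp upstream and 8186 bp from the TSS of Id3, an inhibitor of basic helix-loop-helix factors. The protein of Rpl11 is known for binding Mdm2 under ribosomal stress.

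Counting any assigned peak, 19 of 91 members (20.9%) were in the E13.5 list, against 20.7% of all protein-coding genes. In the E16.5 list there were 29 (31.9%, 23.2 to 42), against 23.6%. Within 50 kb there were 11 (12.1%, 6.89 to 20.4) at E13.5, against 10.8%, and 23 (25.3%, 17.5 to 35.1) at E16.5, against 15.1%. The domain from 5 kb before the TSS to 1 kb after it, complete for every gene the authors used, held a peak in 9 members at E13.5 (9.89%), against 5.51%, and 20 at E16.5 (22%), against 10.2%. Within 2500 bp there were 8 and 19 members, against 5.39% and 10%, and within 500 bp 7 and 17, against 4.54% and 8.73%. In neither list, at any distance, were 60 members (65.9%, 55.7 to 74.8), against 72% of all protein-coding genes. Of these 60 members, 47 were core genes (61% of the core). The 13 others are all the members outside the core except Rps19bp1. Pseudogenes named after ribosomal proteins were left out by the rule: 8 such names were listed, none with a promoter peak.

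**Figure D2:**
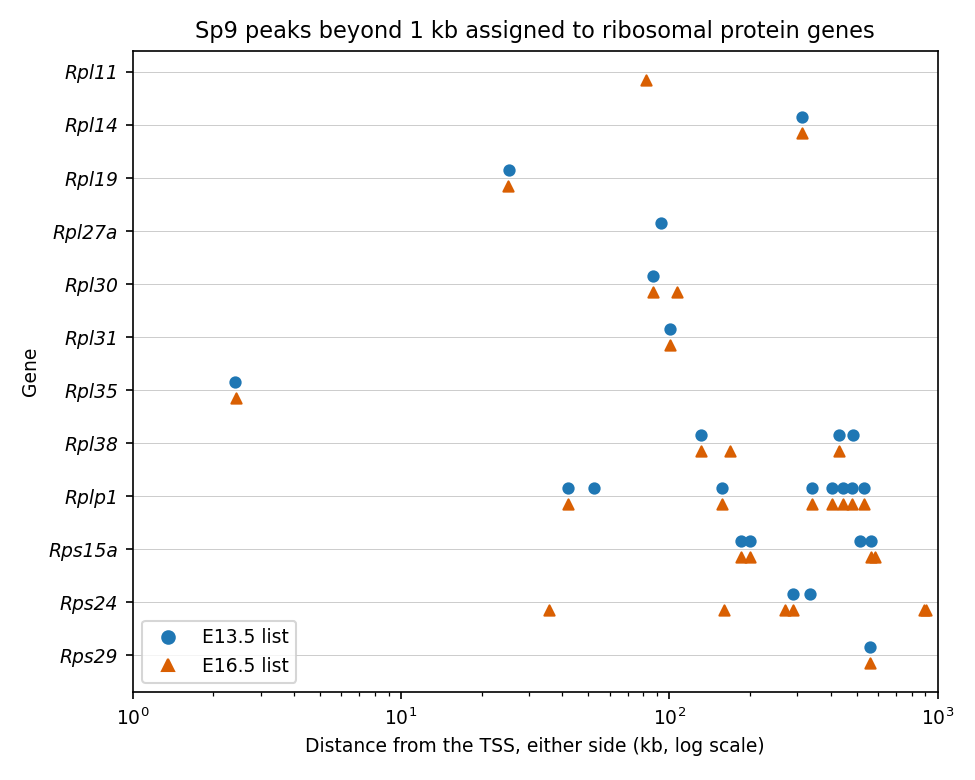
Peaks beyond 1 kb assigned to 12 ribosomal protein genes, by distance from the TSS on either side in kb on a log scale, with circles for the E13.5 list and triangles for the E16.5 list. Most points of a gene come in pairs, a circle above a triangle, and Rplp1 has the most peaks.

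Other genes of protein synthesis were counted the same way. Of 78 mitochondrial ribosomal protein genes, the E13.5 list gave 5 a promoter peak (6.41%, 2.77 to 14.1) and the E16.5 list 14 (17.9%, 11 to 27.9). Mrpl32, Mrpl49, Mrps16 and Mrpl15 had one in both lists. Initiation and elongation factors were taken by name, as Eif or Eef and a number. Of these 71 genes, the E13.5 list gave 5 one (7.04%, 3.05 to 15.4) and the E16.5 list 14 (19.7%, 12.1 to 30.4). Eif4b, Eif5a and Eif4enif1 had one in both lists. Genes only named after a factor were not removed, so Eif4enif1 and Eef1akmt3 are counted. Of 48 genes picked by hand for ribosome assembly and ribosomal RNA processing, 5 (10.4%, 4.53 to 22.2) and 12 (25%, 14.9 to 38.8) had one. This assembly list also holds genes of RNA polymerase I transcription, such as Polr1a, and Eif6, which the Eif name rule counts too. Polr1a, the largest subunit of RNA polymerase I, had its peak 121 bp upstream at E13.5 and 236 bp upstream at E16.5, and Sbds, which frees new large subunits for translation, 58 and 43 bp upstream. The intervals of these lists overlap those of the 77 core ribosomal protein genes at both stages, and the differences were not tested. Shares above the background at E16.5 were thus measured in all of these lists as well. Counting only peaks nearest to the gene's own TSS, the E16.5 background was 8.33%. By that count the shares were 12.8% (7.12 to 22) for mitochondrial ribosomal protein genes and 12.7% (6.81 to 22.4) for the Eif and Eef names. Both intervals include the background. For the assembly list the share was 18.8% (10.2 to 31.9). The background includes genes that are silent in this tissue, and the part of expression level or open chromatin in these shares was not tested.

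**Figure D3:**
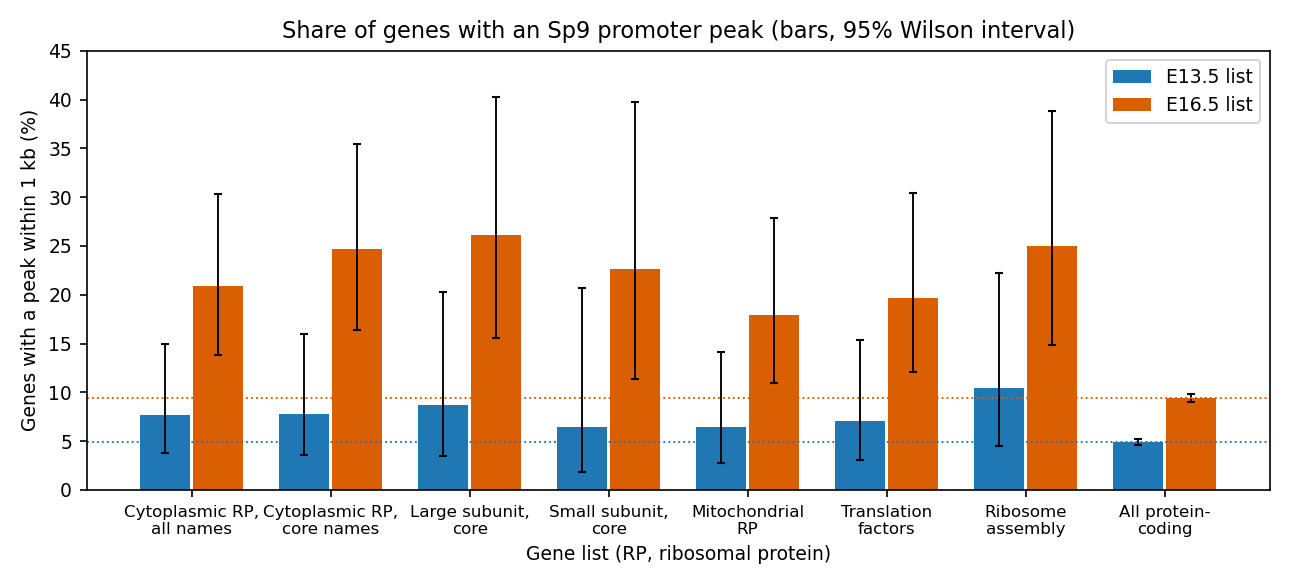
Bars give the percentage of genes with an Sp9 peak within 1 kb of the TSS at E13.5 (blue) and E16.5 (orange), with 95% Wilson intervals over genes, and dotted lines mark all protein-coding genes (4.93% and 9.42%). The E16.5 bars of the ribosomal protein lists, from 20.9% to 26.1%, lie above the upper dotted line, and so do those of the other lists of protein synthesis.

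Promoter sequence was a feature that the choice of members did not use. RefSeq held a promoter of 300 bases, 250 before the TSS and 50 after it, for 57 of the 77 core genes, including 16 of the 19 with a promoter peak. By the lists' own distances, 5 of 5 E13.5 peaks of these genes and 12 of 16 E16.5 peaks lay inside such a window, although the TSS of the lists and of RefSeq may differ. Median GC content was 60.5% (range 54.3 to 72.3) in the 16 promoters with a peak and 56.3% (40.7 to 67) in the 41 without, against 56.3% over 17492 protein-coding genes. Among those protein-coding genes it was 65% with a peak in both lists, 65.3% with one at E16.5 only and 55% with none. At least 5 pyrimidines in a row, reaching within 2 bases of the TSS, were found in 9 of the 16 (56.2%) and 17 of the 41 (41.5%), against 23.7% of all genes, the feature known of TOP mRNAs.

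The GC box letters GGGCGG, on either strand, were in 11 of the 16 promoters with a peak (68.8%, 44.4 to 85.8) and in 23 of the 41 without (56.1%, 41 to 70.1). They were in 46.3% of all promoters of this length. In the 150 bases before the TSS alone, the shares were 50% with a peak and 31.7% without, against 38.3% of all promoters. The intervals of ribosomal protein promoters with and without a peak overlap, and the difference was not tested. Among all protein-coding genes, the GC box was in 81.2% of promoters with a peak in both lists. It was in 78.2% of those with one at E16.5 only and 42.2% of those without any.

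The letters CACGCCC, on either strand, differed more. They were in 7 of the 16 promoters with a peak (43.8%, 23.1 to 66.8), against 3 of the 41 without (7.32%, 2.52 to 19.4), and in 11.1% of all promoters. In the 150 bases before the TSS alone, they were in 6 of the 16 (37.5%) and 1 of the 41 (2.44%), against 7.57%. Over the longer window, the 7 were those of Rpl7a, Rpl35a, Rpl37, Rps10, Rps12, Rps15 and Rps25, and the 3 were those of Rps13, Rps19 and Rps24. In the sequences shown above, CACGCCC stands 139 to 133 bases before the TSS of Rpl7a, 136 to 130 before that of Rps25, 125 to 119 before that of Rpl37 and 122 to 116 before that of Rps15. In Rps10 it takes the last 7 bases before the TSS, and in Rpl35a it lies on the other strand, 12 to 6 bases before it. The peak of Rps25 lay outside the window that holds its match. Of the 7 genes, Rpl7a and Rps25 had their E16.5 peak nearer to another TSS, that of Med22 and of Trappc4. Among the promoters with a peak but without these letters, the same held for Rps18. Over all protein-coding genes, these letters were in 21.7% of promoters with a peak in both lists. They were in 19.3% of those with one at E16.5 only and 9.87% of those with none. The ribosomal protein counts are small, the promoters are not independent samples, and the difference was not tested.

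The letters CACACCC were in 1 of the 16, that of Rpl27, which held 4 copies between 227 and 168 bases before the TSS, and in 0 of the 41, against 7.95% of all promoters. In the 150 bases before the TSS it was in 0 of the 16 and 0 of the 41, against 4.68%. ETS-type letters, CCGGAAG, were in 7 of the 16 (43.8%) and 16 of the 41 (39%), against 11.9% of all promoters. This near equality depends on the window: in the 150 bases before the TSS alone they were in 7 of the 16 (43.8%, 23.1 to 66.8) and 8 of the 41 (19.5%, 10.2 to 34), against 7.46%. All 7 belonged to genes with a peak at E16.5 only, and the 5 with a peak in both lists had 0 matches, a split seen after the values. The letters AAGATGG, which belong to the motif of the factor YY1, were in 5 of the 16 (31.2%, 14.2 to 55.6) and 3 of the 41 (7.32%, 2.52 to 19.4), against 6.37%. In the 150 bases before the TSS they were in 0 of the 16 and 1 of the 41 (2.44%), so this difference rests on matches outside that stretch. A match says only that these letters are in the window, and these data do not show which factor binds them.

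**Figure D4:**
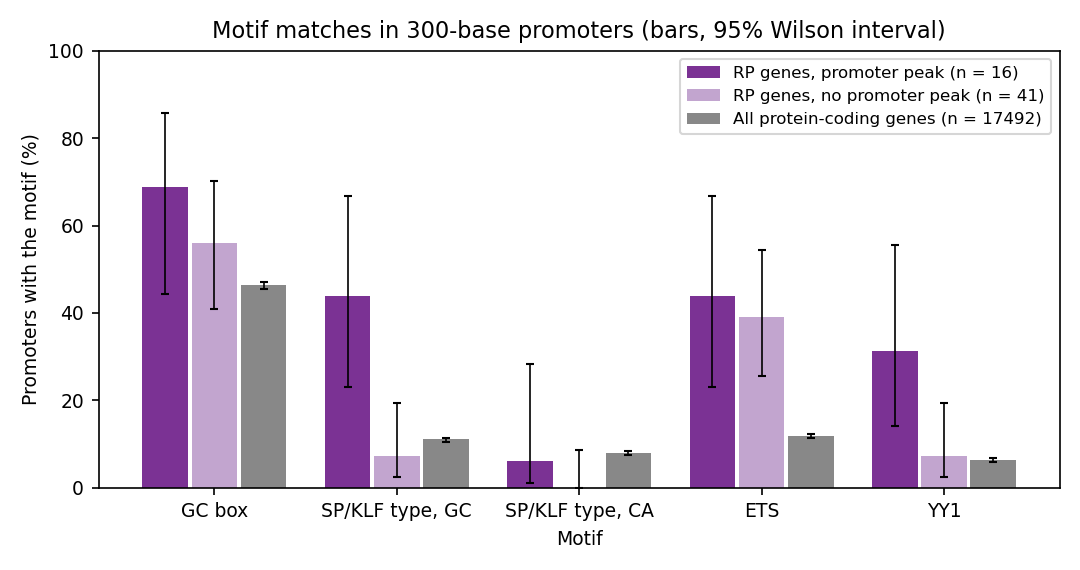
Bars give the percentage of 300-base promoters that hold each motif on either strand, with 95% Wilson intervals over genes, for 16 ribosomal protein genes with a promoter peak, 41 without and 17492 protein-coding genes. The GC-type SP/KLF motif is at 43.8% with a peak and 7.32% without, whereas the intervals of the GC box overlap.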

How the data were processed

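Sp9 ChIP and input libraries came from CD1 basal ganglia at each of 2 stages, and only the ChIP peak lists of the 2 stages were used. Per the submitters' processing notes, the mm9 build was used with MACS2 (2.1.0), BWA (0.6.2), bcl2fastq (1.8.4) and CASAVA (1.8.2), whose roles they do not state. How peaks were thresholded is not stated there. The deposited column has no standard unit and holds text, per the file headers: numbered peaks and their signed distance in bp from each gene's TSS. Per the file headers, the authors assigned peaks to genes whose domain, from 5000 bp upstream to 1000 bp downstream and extended up to 1000000 bp, reached them. Lettered entries of a peak were counted as 1 peak.

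Names were matched to RefSeq's gene table (GRCm38.p6, used for names and gene type), through a synonym only where the name is no current symbol and the synonym is unique. In the E13.5 list 4698 of 4826 names matched, and in the E16.5 list 5330 of 5463. The background was all 21900 protein-coding genes. Shares carry 95% Wilson intervals, and no list was tested, since each stage had 1 library. Motifs were searched on both strands of the first RefSeq promoter listed for each gene. The members, lists and motifs were chosen with earlier results of these data known. The genes named were all members with a promoter peak and those with only farther peaks, of which 1 gene is counted but not reported here by name, and the rest were counted. Examples from the other lists were chosen after their values were seen. Parsing and counting were tested on simulated data (21900 genes, 100% of genes with a promoter peak recovered). Scripts ran in Python 3.11.15 with matplotlib 3.10.9, numpy 2.4.6 and scipy 1.17.1.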

Additional observations from a re-analysis of the deposited data

How the results depend on the processing

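The counts of ribosomal protein genes with a promoter peak (7 in the E13.5 list, 19 in the E16.5 list) stayed within 1.5 times with limits of 500 bp (7 and 17) and 2500 bp (8 and 19), from 5 kb before to 1 kb after the TSS (9 and 20), with core names only (6 and 19), with current symbols only (7 and 19) and for the nearest TSS alone (7 and 15). Within 50 kb the E13.5 count moved to 11, and with any assigned peak the counts moved to 19 and 29. By construction these wider windows take in peaks nearer to other genes. Without predicted genes the background rose to 5.28% and 10.1%. Recurring promoter peaks numbered 5 within 100 bp and 6 within 500 bp, in each list. In the 150 bases before the TSS, the GC box share fell to 31.7% of ribosomal protein promoters without a peak and was 50% of those with one. With any listed start, chosen after seeing the data, these shares were 58.5% and 68.8%. The short window was run for the other motifs after seeing the data, and their values stand beside the longer window's. No paired analysis was possible because each stage had 1 library. Depth is unknown, so neither missed weak sites nor a difference in depth between the stages could be weighed.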
